A study of Mus musculus with 16 samples.

Results

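The 6 actin genes of the mouse were described in heart and liver of wild type mice and of mice lacking methionine sulfoxide reductases. They are Acta1, Actc1, Acta2, Actg2, Actb and Actg1, and they were taken by symbol from the 48709 genes of the count table. All 6 were found. The rule itself uses symbols and no measured value, but the members were chosen with earlier results of these data known.

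The 8 animals were female C57BL/6J mice aged 3 to 6 months that had received no treatment. Of these, 4 were wild type (WT), and the other 4 carried the Msr Quadruple Knockout (QKO), in which the genes of the family, Msra, Msrb1, Msrb2 and Msrb3, are targeted in the whole animal. Heart and liver came from the same mice, so the 16 libraries form 4 groups of 4 animals. The controls carried none of these alleles per the labels, and the labels do not say whether they were littermates of the QKO mice.

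Actin is the protein of thin filaments in muscle and of microfilaments in every cell, and its isoforms differ by few residues. Acta1 is the actin of adult skeletal muscle, Actc1 that of adult heart, and Acta2 and Actg2 those of vascular and enteric smooth muscle. Actb and Actg1 are the cytoplasmic isoforms of nearly all cells. In the heart, Acta1 and Acta2 are known as isoforms of the embryonic heart that can rise again under load. Actin is also a substrate of methionine chemistry: MICAL enzymes oxidise methionines of the filament, and MSRB1 is known to reduce them again.

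On the mouse assembly GRCm38 (mm10), all 6 genes lie on the minus strand and encode protein. Acta1 (ENSMUSG00000031972.5) lies at chr8:123891769-123894751 and Actc1 (ENSMUSG00000068614.7) at chr2:114047282-114053548. Acta2 (ENSMUSG00000035783.8) lies at chr19:34241090-34255590 and Actg2 (ENSMUSG00000059430.14) at chr6:83512905-83536265. Actb (ENSMUSG00000029580.14) lies at chr5:142903115-142906754 and Actg1 (ENSMUSG00000062825.15) at chr11:120345690-120348542.

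The coding sequences of the 6 genes are alike, which bears on whether reads can be told apart. Identity between pairs of coding sequences ran from 81.91% to 88.65%, with Actb and Actg1 the closest pair. Among stretches of 75 bases, the read length, Acta1 and Actb shared 3 with each other, 0.219% of those of Acta1, and no other pair of members shared any. Copies elsewhere in the genome matter more. Of the stretches of the Actg1 transcript, 54.473% also occur in another annotated transcript, above all in processed pseudogenes (Gm12715 holds 47.817%). For Actb this share was 2.6%, for Acta1 0.437%, and for Actc1, Acta2 and Actg2 it was 0. How reads with several matches were treated is not given in the sources used here, so the level of Actg1 is uncertain and may be too low. The 7 Actg1 pseudogenes present in the table held 1.38% to 4.401% of the Actg1 count.

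The promoters of the muscle isoforms are shown because these isoforms share a known regulator, serum response factor (SRF), which binds the CArG box. The 250 bases before the transcription start were taken from RefSeq (GRCm38.p6), which matched 4 of the 6 members here: Acta1, Actc1, Acta2 and Actg1. Capitals mark CArG boxes, either exact or with 1 of the 6 central bases other than A or T. The box reads as a box on both strands, so 1 search covers both, and no boxes overlapped. The windows are chr8:123894776-123895025, chr2:114052876-114053125, chr19:34255374-34255623 and chr11:120348496-120348745 for the genes in the order below, all on the minus strand and written 5′ to 3′. The RefSeq starts of these genes differ from the ends of the gene spans given above, and those of Actc1, Acta2 and Actg1 lie inside the spans.

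Acta1: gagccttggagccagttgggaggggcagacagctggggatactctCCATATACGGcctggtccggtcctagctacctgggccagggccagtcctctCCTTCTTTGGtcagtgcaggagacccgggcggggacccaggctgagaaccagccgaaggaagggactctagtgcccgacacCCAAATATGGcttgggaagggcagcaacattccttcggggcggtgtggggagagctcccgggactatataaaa

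Actc1: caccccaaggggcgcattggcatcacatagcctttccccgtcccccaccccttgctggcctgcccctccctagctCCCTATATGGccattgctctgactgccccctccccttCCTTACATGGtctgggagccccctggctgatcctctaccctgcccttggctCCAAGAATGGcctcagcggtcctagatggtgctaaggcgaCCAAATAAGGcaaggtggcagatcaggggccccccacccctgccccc

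Acta2: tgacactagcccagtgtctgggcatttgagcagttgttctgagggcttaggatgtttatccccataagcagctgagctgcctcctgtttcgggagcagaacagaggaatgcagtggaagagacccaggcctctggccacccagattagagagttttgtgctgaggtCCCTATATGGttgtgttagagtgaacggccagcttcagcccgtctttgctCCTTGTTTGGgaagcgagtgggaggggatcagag

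Actg1: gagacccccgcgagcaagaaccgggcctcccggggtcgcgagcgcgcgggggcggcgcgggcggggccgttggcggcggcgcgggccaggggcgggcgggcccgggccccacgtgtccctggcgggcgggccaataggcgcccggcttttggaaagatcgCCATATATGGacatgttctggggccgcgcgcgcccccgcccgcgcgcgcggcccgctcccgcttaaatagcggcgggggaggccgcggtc

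Acta1 held 1 exact box that starts 73 bases before the transcription start, Actc1 1 at 47 bases and Actg1 1 at 90 bases. Acta2 held no exact box in this window and 2 with 1 differing base, at 84 and 34 bases. Acta1 held 2 further boxes with 1 differing base and Actc1 held 3. Of all 32851 RefSeq promoter windows of this length, 1.47% held an exact box and 8.59% held a box with up to 1 differing base. These matches describe the letters of the window and were not tested as binding sites.

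Total counts per library ran from 37.9 M to 72.6 M, and heart libraries differed in content. Counts on ribosomal RNA made up 31.4% to 56.9% of 6 heart libraries. This share was 7.37% for WT replicate 4 and 0.245% for QKO replicate 4, and under 1% in every liver. Of the targeted genes, Msrb2 fell to 0.161 ± 0.0493 CPM in QKO hearts from 12.96 ± 1.15 CPM in WT hearts (SD, n = 4), and to 0.0295 ± 0.0202 from 4.46 ± 1.55 CPM in livers. Msrb3 fell in both tissues and Msra in heart, whereas Msrb1 RNA was higher in QKO hearts (21.03 ± 2.11 against 15.2 ± 1.03 CPM, log2 0.48, adjusted p = 0.0337 by edgeR's test). In liver Msra (log2 -0.72, adjusted p = 0.0867) and Msrb1 (log2 -0.39, adjusted p = 1.00) did not pass. The labels do not say which exons were deleted. The tissue labels held: summed CPM of 11 cardiomyocyte markers was 16620 to 20310 in hearts and 14.75 to 43.3 in livers, and that of 10 hepatocyte markers 36530 to 49810 in livers and 59.9 to 348.5 in hearts. WT liver 4 also held skeletal muscle transcripts, and WT livers 3 and 4 held pancreatic acinar ones. CPM are counts per 1 M counts, on library sizes scaled over all 16 libraries by the trimmed mean of M-values. Fewer cells of a type and less RNA per cell cannot be told apart in such tissue samples.

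The first question was which actins the tissues hold. In heart, Actc1 made up most actin RNA, and in liver Actb did. Levels of different genes were compared as CPM per 1 kb of the main transcript. In WT hearts, Actc1 had 1405 ± 128 CPM per kb, Actb 70.6 ± 7.13, Acta1 25.4 ± 10.4, Actg1 13.7 ± 1.23, Acta2 7.81 ± 3.48 and Actg2 0.0848 ± 0.147 (SD, n = 4). The ranges of Acta2 and Actg1 overlapped, and other neighbours in this order did not. In QKO hearts the order was the same, with Actc1 at 1670 ± 162, Actb at 67.6 ± 8.53, Acta1 at 51.8 ± 19.6, Actg1 at 14.5 ± 2.44, Acta2 at 13.6 ± 4.78 and Actg2 at 0.0389 ± 0.0268 CPM per kb. There the range of Acta1 overlapped that of Actb, and Acta2 overlapped Actg1. On the longer length of all annotated exons, Acta1 (48.8) and Actb (48.4) changed places in QKO hearts, as did Acta2 (12.6) and Actg1 (10.7).

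In WT livers Actb had 143.5 ± 15.1 and Actg1 11.3 ± 1.70 CPM per kb, followed by Acta2 with 1.53 ± 0.565, Actc1 with 1.23 ± 0.865 and Actg2 with 0.131 ± 0.101 (SD, n = 4). Acta1 had no common level there, with 0.00761 to 38.3 CPM per kb. In QKO livers, Actb had 147.7 ± 4.74, Actg1 10.9 ± 1.06, Actc1 1.26 ± 0.706, Acta2 0.977 ± 0.995, Acta1 0.878 ± 1.37 and Actg2 0.100 ± 0.155 CPM per kb. The ranges of Actc1, Acta2 and Acta1 overlapped each other in livers of both genotypes.

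As a share of the summed actin level per kb, Actc1 took 90.9% to 92.95% in WT hearts and 91.1% to 92.35% in QKO hearts. Actb took 4.23% to 5.11% and 2.75% to 4.58%. In liver, Actb took 72.4% in WT 4, where Acta1 took 19.1%, and 89.2% to 93.2% in the other 7 livers. The ranges of both shares overlapped between the genotypes in heart.

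**Figure D1:**
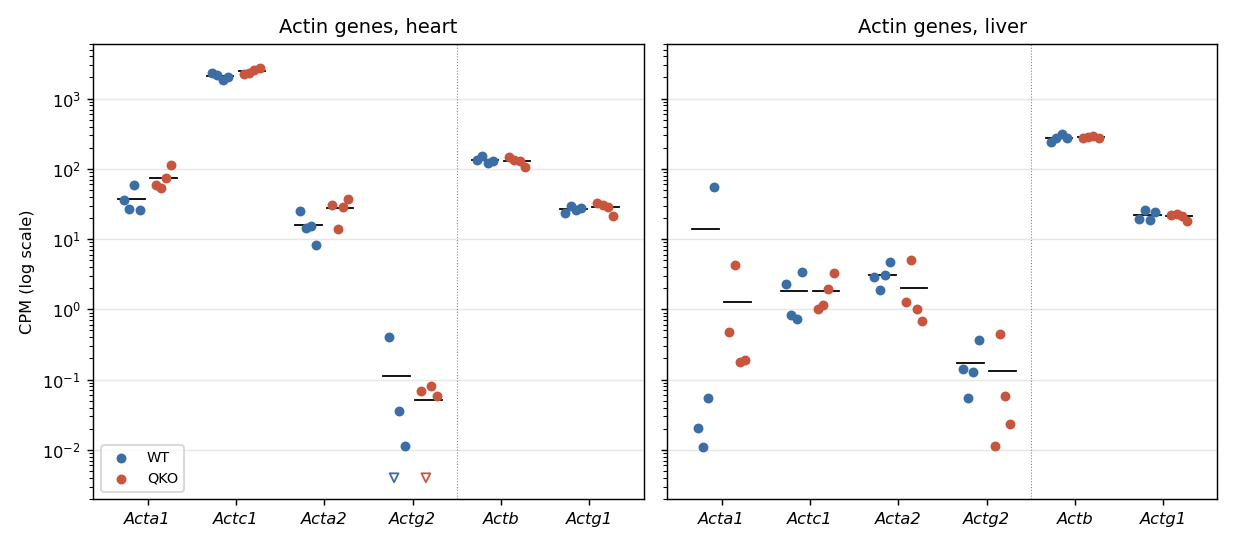
CPM of each actin gene on a log scale in heart (left) and liver (right), 1 point per library, with black lines at group means; open triangles mark libraries with 0 counts, drawn at the foot of the axis, and the dotted line parts muscle from cytoplasmic isoforms. Actc1 leads in every heart (1835 to 2771 CPM) and Actb in every liver (240.8 to 311.4 CPM), and Acta1 in liver spreads from 0.0110 to 55.4 CPM.

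The tissues were then compared gene by gene within each genotype, by edgeR's quasi-likelihood test over all genes with Benjamini-Hochberg adjustment at 0.05. In WT animals 3 of 6 actins passed, Actc1 and Acta2 higher in heart and Actb lower. Most genes differ between such tissues: 72.5% of those tested passed, 35.6% higher and 36.9% lower in heart. Actc1 was 1158-fold higher in heart (log2 10.18, SE 0.64, adjusted p = 9.10e-08), and Acta2 5.14-fold (log2 2.36, SE 0.35, adjusted p = 8.86e-05). Actb stood at 0.496 of its liver level (log2 -1.01, SE 0.16, adjusted p = 1.49e-04). Actg1, the other cytoplasmic isoform, did not pass, with a log2 difference of 0.30 (SE 0.13, adjusted p = 0.0535). Actg1 passed with the animal as a block (adjusted p = 0.0282), and also under upper-quartile scaling, a stricter count filter, with protein-coding genes alone, and without WT liver 2, WT liver 4 or WT heart 1.

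Acta1 did not pass in WT animals, with a log2 difference of 1.42 (SE 1.55, adjusted p = 0.425). This value depended on WT liver 4 and on the model. Without WT liver 4 the difference was 10.16 (adjusted p = 3.71e-09), and without WT livers 3 and 4 it was 11.1 (adjusted p = 4.94e-08). With the animal as a block, a fit that keeps WT liver 4, it was 6.62 (adjusted p = 0.0167). Actg2 had 0 to 24 counts per WT library and did not pass (log2 -0.55, SE 0.98, adjusted p = 0.627). WT heart 1 held 17 of its 19 heart counts, and without that library Actg2 passed as lower in heart (log2 -3.37, adjusted p = 0.0154).

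In QKO animals 5 of 5 tested actins passed, against 74.3% of all genes (37.2% higher and 37.1% lower in heart), and Actg2 did not reach the count filter. Actc1 was 1357-fold higher in heart (log2 10.41, SE 0.46, adjusted p = 3.45e-10) and Acta1 58.8-fold (log2 5.88, SE 0.82, adjusted p = 2.75e-05). Acta2 was 14.1-fold higher (log2 3.81, SE 0.54, adjusted p = 3.01e-05). QKO liver 2 held 345 of 412 Acta1 counts and 408 of 628 Acta2 counts of these livers, and without it the log2 differences were 8.003 for Acta1 and 4.83 for Acta2. Actg1 was 1.36-fold higher in heart (log2 0.45, SE 0.13, adjusted p = 0.00928), while Actb stood at 0.468 of its liver level (log2 -1.10, SE 0.13, adjusted p = 5.61e-06). The directions of the called actins were the same under each scaling tried. With upper-quartile scaling the median log2 difference of all genes was 0.16 in WT and 0.20 in QKO animals, against -0.02 and 0.01 with the scaling used here, and the called genes were then 7344 higher and 5868 lower in WT and 7596 and 5854 in QKO.

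The second question was whether the knockout changed the actins of the heart. None of the 5 tested actins passed the threshold in heart, where 0.165% of all genes passed (28 of 16974). The 3 muscle isoforms Acta1, Acta2 and Actc1 lay higher in QKO hearts with unadjusted p under 0.05, which 7.19% of all genes reached, 3.19% in that direction. DESeq2 and limma-voom also called none of them. The cytoplasmic isoforms had fold changes of 0.957 (Actb) and 1.05 (Actg1). For no member were the WT and QKO hearts free of overlap, against 4.67% of all tested genes.

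Acta1, the skeletal isoform, had 35.9, 26.8, 58.3 and 26.1 CPM in WT hearts 1 to 4, and 58.4, 52.7, 73.3 and 115.4 CPM in QKO hearts 1 to 4. Of the QKO hearts, 3 lay above every WT heart, and QKO 2 lay below WT 3. The fold change was 2.05 (95% interval 1.39 to 3.03), or 1.04 on the log2 scale (SE 0.26, adjusted p = 0.314 by edgeR's test). Without the replicates 4 of both genotypes, which held little ribosomal RNA and the lowest and highest Acta1, the log2 difference was 0.61 (adjusted p = 0.515). The part of the ribosomal share in the Acta1 difference was not tested. With no count filter Acta1 passed (adjusted p = 3.71e-05), where 102 of 30532 genes passed. It also passed among the animals whose numbers begin with 47 (log2 0.82, adjusted p = 0.00265), where 108 of 16322 genes passed. Among those that begin with 48 it did not (log2 1.17, adjusted p = 0.245). Each of these number series holds only 2 WT and 2 QKO animals.

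WT heart 3 had the highest Acta1 of its group and also the highest sum of 5 atrial markers, 47.5 CPM, where the WT hearts began at 13.6. The QKO hearts held 24.4 to 43.7 CPM of these markers. Nppa, the atrial natriuretic peptide, is 1 of the 5 and also 1 of the 11 cardiomyocyte markers. It made up 42.8 of 43.7 CPM in QKO heart 3 and 30.8 of 31.5 CPM in QKO heart 4, against 18.8 of 47.5 CPM in WT heart 3. Myl7, the atrial myosin light chain, had 10, 0, 431 and 230 counts in WT hearts and 305, 117, 5 and 5 counts in QKO hearts. QKO heart 4 had the highest Acta1 of all. The sum of 12 skeletal muscle markers was also highest in WT heart 3 among WT hearts (7.54 to 15.7 CPM). Among QKO hearts (7.77 to 12.2 CPM) it was highest in QKO heart 4. Mybpc2 made up 12.1 of 15.7 CPM in WT heart 3 and 8.13 of 12.2 CPM in QKO heart 4. The part of atrial tissue or of skeletal muscle RNA in the Acta1 values was not tested.

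Acta2, the vascular smooth muscle isoform, had 25.3, 14.5, 15.5 and 8.22 CPM in WT hearts and 30.9, 14.1, 28.5 and 37.1 CPM in QKO hearts. QKO 2 lay among the WT hearts and the other 3 above them all. The fold change was 1.76 (95% interval 1.13 to 2.76), or 0.82 on the log2 scale (SE 0.30, adjusted p = 0.660 by edgeR's test). With no count filter Acta2 passed (adjusted p = 0.0120). Among the 2 WT and 2 QKO animals numbered from 48 it also passed (log2 1.53, adjusted p = 0.0330), where 37 of 18244 genes passed. Among the 2 WT and 2 QKO animals numbered from 47 the log2 difference was 0.15 (adjusted p = 0.932). The difference between the number series was not tested, and without hearts 4 of both genotypes the value was 0.40 (adjusted p = 0.800).

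Like Acta2, no smooth muscle marker passed in heart. Their summed CPM was 94.2 to 111.4 in WT and 98.2 to 105.4 in QKO hearts. Of the 9 markers, 6 lay lower in QKO and 0 passed, with a median log2 difference of -0.12 beside -0.00 over all genes. Myh11, the smooth muscle myosin heavy chain, had 6.82, 5.52, 8.90 and 3.97 CPM in WT hearts and 3.38, 2.59, 3.11 and 2.83 CPM in QKO hearts. Its groups did not overlap, and its log2 difference was -1.07 (SE 0.21, adjusted p = 0.0837). Tagln, another marker of these cells, had 2.33 to 5.69 CPM in WT and 1.24 to 4.43 CPM in QKO hearts (log2 -0.39, adjusted p = 0.815). Lmod1 (log2 -0.79) and Cnn1 (log2 -0.74) also lay lower, at mean WT levels of 0.507 and 0.442 CPM. The 3 of the 9 markers that lay higher included Synpo2 (log2 0.08) and Smtn (log2 0.12).

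Actc1, the main actin of the heart, had 2280, 2138, 1835 and 2025 CPM in WT hearts and 2241, 2310, 2521 and 2771 CPM in QKO hearts. The QKO hearts 2 to 4 lay above every WT heart. The fold change was 1.19 (95% interval 1.01 to 1.39), or 0.25 on the log2 scale (SE 0.11, adjusted p = 0.670 by edgeR's test). Cardiomyocyte markers lay higher as well: their sum was 16620 to 18450 CPM in WT and 19210 to 20310 CPM in QKO hearts. Myh6, the most abundant of them, weighs most in this sum. It had a mean of 6533 CPM in WT and 8119 CPM in QKO hearts (log2 0.31, adjusted p = 0.660 by edgeR's test). All 11 markers had higher values in QKO, 0 passed, and their median log2 difference was 0.12. The part of cardiomyocyte content in the Actc1 value was not tested.

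Actb had 135.4, 154.1, 121.7 and 130.5 CPM in WT hearts and 146.9, 135.6, 128.8 and 107.9 CPM in QKO hearts. The fold change was 0.957 (95% interval 0.828 to 1.11, adjusted p = 0.908). Actg1 had 23.9, 29.5, 25.96 and 27.7 CPM in WT hearts and 32.3, 31.0, 28.3 and 21.7 CPM in QKO hearts, a fold change of 1.05 (95% interval 0.891 to 1.25, adjusted p = 0.905). QKO heart 4 was the lowest heart for both cytoplasmic isoforms and the highest for the 3 tested muscle isoforms. Actg2, the enteric isoform, had 17, 0, 1 and 1 counts in WT hearts and 2, 0, 3 and 5 counts in QKO hearts and was not tested. A count of 0 allows up to 0.124 CPM in WT heart 2 and 0.0863 CPM in QKO heart 2, from 3 counts and for counting error only.

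**Figure D2:**
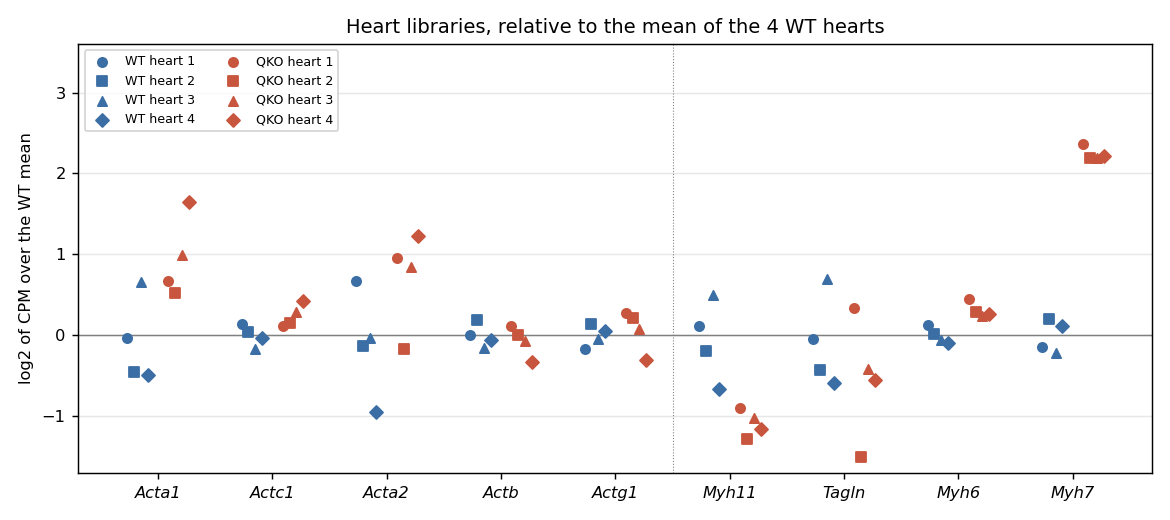
The log2 ratio of CPM to the mean of the 4 WT hearts, 1 symbol per heart library, for 5 actins (left of the dotted line) and for the myosin chains Myh11, Myh6 and Myh7 and the smooth muscle gene Tagln. Acta1, Actc1 and Acta2 of QKO heart 4 stand highest and its Actb and Actg1 lowest, and Myh11 lies lower in all 4 QKO hearts than in any WT heart.

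Actin genes are often read beside the fetal genes of hypertrophy. Of 8 such genes other than actins, 1 passed in heart, Myh7, the slow myosin heavy chain, which rose from 146.6 ± 20.3 to 693.7 ± 41.6 CPM (SD, n = 4, log2 2.24, adjusted p = 3.23e-08). The other 7 did not pass. Nppa, the atrial natriuretic peptide, had a log2 difference of 0.60 (adjusted p = 0.738) and Nppb, the ventricular one, -0.49 (adjusted p = 0.738). The median of the list was 0.06.

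The third question was whether the knockout changed the actins of the liver. None of the 6 passed, where 0.0846% of all genes passed (15 of 17738), and none had an unadjusted p under 0.05, which 3.29% of all genes reached. The groups of every member overlapped, against 2.12% of tested genes whose groups did not. Actb, the main actin of the liver, had 240.8, 271.0, 311.4 and 279.0 CPM in WT livers and 278.9, 287.9, 293.9 and 273.6 CPM in QKO livers. Its fold change was 1.02 (95% interval 0.833 to 1.26), and that of Actg1, at 19.0 to 25.6 CPM in WT and 18.3 to 22.9 CPM in QKO livers, was 0.960 (95% interval 0.777 to 1.19).

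The muscle isoforms were scarce in liver, and their values followed single libraries. Acta1 had 1, 1, 5 and 3609 counts in WT livers 1 to 4, and 42, 345, 9 and 16 counts in QKO livers 1 to 4. WT 4 exceeded all QKO livers and the other WT livers lay below all of them. The log2 difference was -3.45 (95% interval -7.55 to 0.66, adjusted p = 1.00), and without WT liver 4 it was 5.33 (adjusted p = 0.562). Skeletal muscle markers ranked the livers in nearly the same order: their summed CPM was 161.0 in WT 4, 13.9 in QKO 2, 2.46 in QKO 1 and 0.418 to 0.926 in the other 5. All 12 of these markers had counts in WT 4 and QKO 2, and 4 to 7 of them were at 0 in those 5 livers. Myh2, a fast myosin heavy chain of skeletal muscle, had 2060 counts in WT 4, 185 in QKO 2, 50 in QKO 1 and 0 to 5 in the rest. The part of this muscle RNA in the Acta1 values was not tested.

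**Figure D3:**
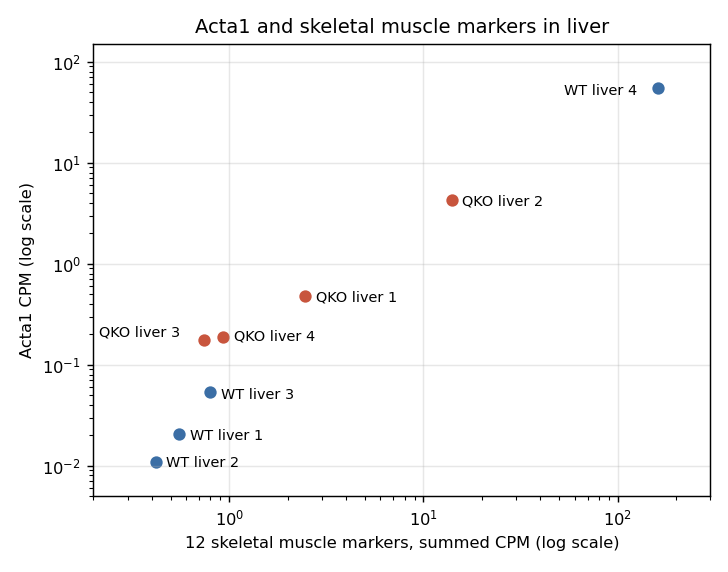
Acta1 CPM against the summed CPM of 12 skeletal muscle markers in the 8 livers, both on log scales. WT liver 4 (161.0 CPM of markers, 55.4 CPM of Acta1) and QKO liver 2 (13.9 and 4.23 CPM) stand apart at the upper right, and WT livers 1 to 3 lie lowest in Acta1 (0.0110 to 0.0539 CPM).

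Actc1 had 2.33, 0.825, 0.723 and 3.37 CPM in WT livers and 1.02, 1.14, 1.97 and 3.28 CPM in QKO livers, a log2 difference of 0.04 (95% interval -1.08 to 1.15). Acta2, in liver a marker of vessel walls and of activated stellate cells, had 2.84, 1.87, 3.11 and 4.65 CPM in WT livers and 1.26, 5.01, 0.995 and 0.691 CPM in QKO livers. QKO liver 2 was the highest of all 8 livers and the other 3 QKO livers lay below every WT liver. The log2 difference was -0.66 (95% interval -1.83 to 0.52, adjusted p = 1.00). Without QKO liver 2 it was -1.66 (adjusted p = 0.307). Actg2 had 7, 5, 12 and 24 counts in WT livers and 1, 36, 3 and 2 counts in QKO livers, a log2 difference of -0.34 (95% interval -2.36 to 1.68). QKO liver 2 was thus the highest QKO liver for Acta1, Acta2 and Actg2. It was also the highest of the QKO livers in Myh11, with 5.04 CPM against 0.839 to 1.25 CPM in the other 3.

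**Figure D4:**
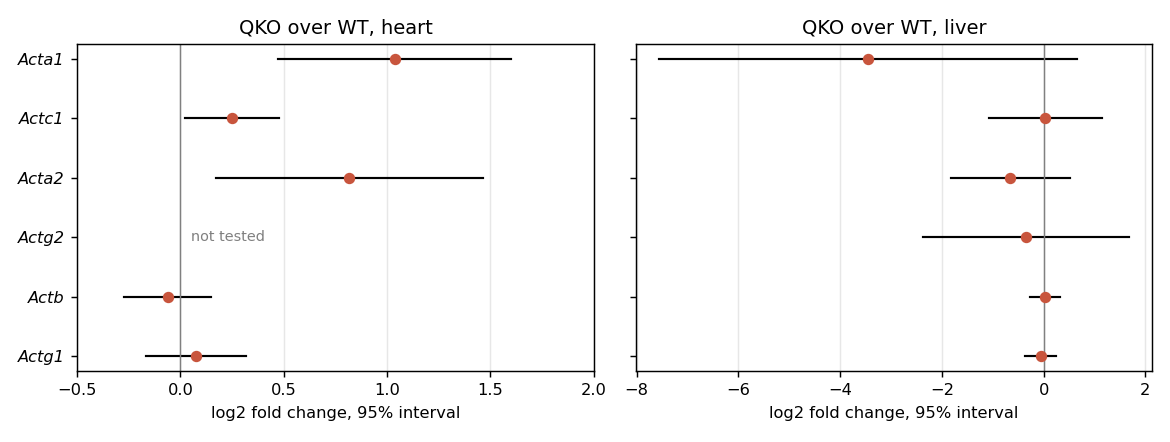
Log2 fold change of QKO over WT with its 95% interval for each actin in heart (left) and liver (right, a wider axis), from edgeR's quasi-likelihood fit; Actg2 was not tested in heart. Intervals of Acta1, Actc1 and Acta2 in heart lie above 0 before adjustment over all genes, and that of Acta1 in liver spans -7.55 to 0.66.

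The genotype effect was also compared between the tissues, as the interaction in 1 fit of all libraries. No actin passed, and 0.00511% of all genes did (1 of 19587). The heart effect minus the liver effect was 4.44 for Acta1 (SE 1.96, adjusted p = 1.00 by edgeR's test), without WT liver 4 it was -4.31, and with the animal as a block 0.24. For Acta2 it was 1.43 (SE 0.69, adjusted p = 1.00 by edgeR's test), and without QKO liver 2 it was 2.47 (adjusted p = 0.414). The other 4 actins had values of -0.77 (Actg2) to 0.20 (Actc1).

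Shares of 1 isoform within a pair do not depend on library size. In heart, Acta1 made up 1.55%, 1.24%, 3.08% and 1.27% of the Acta1 and Actc1 counts in WT and 2.54%, 2.23%, 2.83% and 4.00% in QKO animals. Only WT heart 3 lay among the QKO hearts. The means were 1.79% ± 0.874 and 2.90% ± 0.774 (SD, n = 4 each), a difference of 1.11 points with an exact two-sided permutation p of 0.114 (0.214 adjusted over 3 shares). Without WT heart 3 the difference was 1.55 points (exact p = 0.0571, the smallest that 3 against 4 can give). Without hearts 4 of both genotypes it was 0.577 points (exact p = 0.400, where 3 against 3 cannot go below 0.100). The smallest p that the 70 relabellings of 4 against 4 can give is 0.0286.

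For the cytoplasmic pair in heart, Actb made up 84.99%, 83.9%, 82.4% and 82.5% of the Actb and Actg1 counts in WT and 81.95%, 81.4%, 81.96% and 83.3% in QKO animals. The means were 83.5% ± 1.24 and 82.2% ± 0.811, with an exact permutation p of 0.143 (0.214 adjusted). In liver, Actb took 92.6% ± 1.22 of the pair in WT and 93.0% ± 0.543 in QKO animals (exact permutation p = 0.429, also after adjustment). The share of Actb was higher in every liver (91.4% to 94.3%) than in any heart (81.4% to 84.99%). None of the 3 shares differed between genotypes beyond the spread of the animals by these tests.

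**Figure D5:**
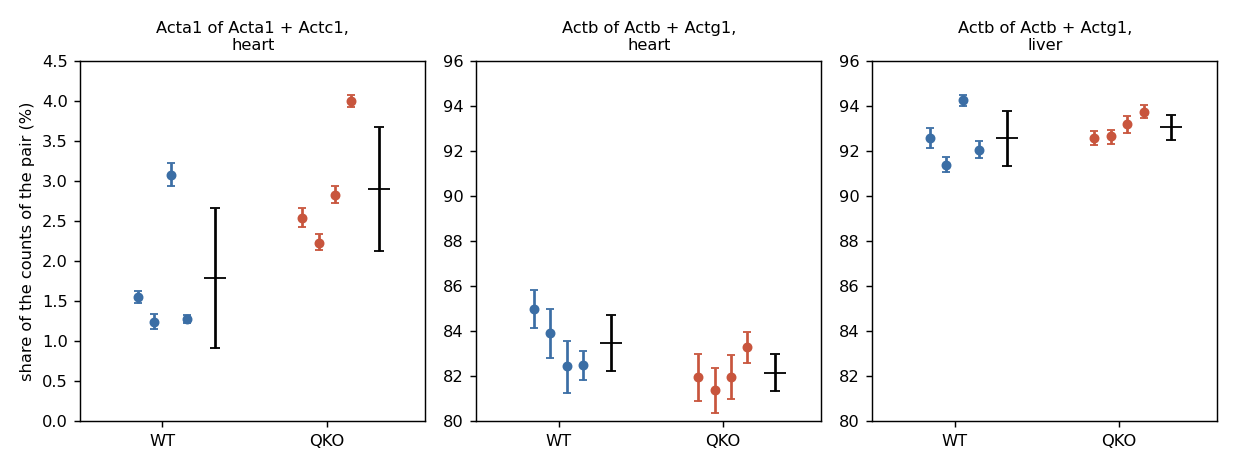
Share of 1 isoform in the counts of a pair per library, in percent, with 95% Wilson intervals that cover counting error only, and group mean with SD in black; the 2 Actb panels start at 80%. WT heart 3 (3.08%) lies among the QKO hearts in the Acta1 panel, and Actb shares are 81.4% to 84.99% in heart and 91.4% to 94.3% in liver.

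Actin is made, folded and turned over with the help of many proteins, and 10 lists of them held 120 genes other than the members. In heart 1 of the 111 tested genes passed, which is 0.901% of them, beside 0.165% of all genes. That gene was Lcp1, the actin bundling protein of leukocytes, which had 9.89 to 11.1 CPM in WT and 5.07 to 6.59 CPM in QKO hearts (log2 -0.83, SE 0.10, adjusted p = 0.00245). Macrophage markers lay lower beside it, with summed CPM of 85.0 to 108.2 in WT and 64.6 to 82.7 in QKO hearts. Of the 8 tested markers 7 had lower values and 0 passed, and their part in the Lcp1 value was not tested. In liver 0 of 111 passed. The median log2 difference of the tested genes was 0.02 in heart and -0.04 in liver, against -0.00 and -0.01 over all genes.

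Nucleators start new filaments. Of the 9 genes of the Arp2/3 complex and 17 tested formins and other nucleators, 0 passed in either tissue. In heart, where all values named here missed the threshold, the highest and lowest differences were 0.13 for Arpc1a and -0.12 for Actr2, and 0.11 for the cardiac formin Fhod3 and -0.22 for Fmnl2. In liver they were 0.17 for Arpc4 and -0.26 for Actr2, and 0.25 for Fhod1 and -0.18 for Diaph2. Actr2 encodes one of the actin-like subunits of the complex.

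Proteins that bind monomers, sever filaments or cap their ends also gave 0 calls among 25 tested genes in each tissue. In heart the extremes were 0.23 for the severing protein Scin and -0.13 for the monomer-binding Twf1, and 0.08 for the adducin Add1 and -0.26 for the tropomodulin Tmod2. In liver they were 0.09 for profilin Pfn1 and -0.84 for gelsolin Gsn, which severs filaments, and 0.18 for Eps8 and -0.14 for Tmod3. Gsn had 27.4 ± 15.7 CPM in WT and 15.4 ± 4.93 CPM in QKO livers (SD, n = 4, adjusted p = 1.00 by edgeR's test).

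Tropomyosins lie along the filament, and none of the 4 passed. The heart values ran from -0.01 for Tpm2 to 0.15 for Tpm1, the main tropomyosin of heart muscle, and the liver values from -1.15 for Tpm2 to -0.02 for Tpm3. Among crosslinkers, Plec had 0.10 in heart, and Fscn1 0.31 and the muscle filamin Flnc -2.01 in liver. Flnc and Tpm2 are muscle genes, and their WT livers varied widely (1.86 ± 2.73 and 9.999 ± 11.7 CPM, SD, n = 4). Flnc, Tpm2 and Gsn were all highest in WT liver 4, the library with the most skeletal muscle RNA, at 5.95, 27.6 and 50.8 CPM.

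Of 14 genes for folding, maturation and modification of actin, 0 passed in either tissue. The list holds the chaperonin that folds actin and the MICAL oxidases. In heart the extremes were 0.14 for Mical1 and -0.21 for Mical2, the latter with an unadjusted p of 0.0124 by edgeR's test (adjusted p = 0.655). In liver they were 0.08 for Pdcl3, a cofactor of the chaperonin, and -0.23 for Mical1. Of the actin-related proteins, Actr1a had 0.13 and Actr6 -0.30 in heart, and Actr1b 0.06 and Actr5 -0.15 in liver, and 0 of 7 tested passed in each.

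SRF drives many actin genes, and its cofactors Mrtfa and Mrtfb sense the pool of free actin. Of 6 genes for SRF and its cofactors, 0 passed in heart, with values from -0.12 for Elk1 to 0.20 for Mrtfa. In liver 0 of 5 passed, with values from -0.17 for Mrtfb to 0.13 for Srf. Of 18 SRF targets other than actins, 0 passed in either tissue, with medians of 0.02 in heart and 0.03 in liver. In heart 10 of them lay higher and 8 lower, and 4 of the 18 had an unadjusted p under 0.05, which 7.19% of all genes reached. Fos, an immediate early gene, had the highest value, 1.97, at 0.695 ± 0.427 CPM in WT and 2.62 ± 1.78 CPM in QKO hearts (SD, n = 4, adjusted p = 0.379 by edgeR's test). Myh11, described above, had the lowest. In liver the extremes were 0.44 for Ccn2 and -1.15 for Tpm2.

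The genes most like each actin were named by Pearson's r of log2(CPM + 1) over the 8 libraries of a tissue, among protein-coding genes with a mean of 1 CPM or more. All points share their library's depth and content, and the highest of 11313 values are high by selection, so r is given as a description. In heart, Acta1 was most like Sh3bgr (r = 0.96), Itga9 (0.94) and Spcs1 (0.94), and Actc1 most like Lpin3 (0.97), Fbxl22 (0.96) and Pkm (0.96). Acta2 was most like Foxred1 (0.96), Txnrd3 (0.95) and Rbm24 (0.94). Actb was most like Fli1 (0.97), D10Wsu102e (0.96) and Frmd4a (0.95), and Actg1 most like Pik3c2b (0.97), Hinfp (0.96) and Afdn (0.95).

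Among the members in heart, Actb and Actg1 had r = 0.77, Acta1 and Acta2 0.75, Actc1 and Acta2 0.72, and Acta1 and Actc1 0.63 over the 8 libraries. Acta1 and Actb had r = -0.69. In liver, Actb was most like Vps37c (0.94), Hnrnpll (0.93) and Gm28539 (0.92), and Actg1 most like Xylb (0.96), Impdh2 (0.95) and Ilvbl (0.95). Actb and Actg1 had r = 0.04 with each other in the 8 livers.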

How the data were processed

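RNA-seq libraries were made from stranded, ribosome-depleted total RNA and read as pairs of 75 bases, per the labels' protocols. The authors deposited raw counts per Ensembl gene, and per the submitters' processing notes used mm10, HISAT2, featureCounts and other tools, without versions. The annotation release and strand setting are not given in the sources used here. Gm20388 and A530058N18Rik lie opposite Acta1 and Actc1 and share 0 bp of exon with them; WT liver 2 had 2090 counts of Gm20388 and 1 of Acta1. All 16 columns were mapped and 0 were left over. Symbols came from GENCODE M21 (48349 of 48709 identifiers matched).

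Each tissue was tested on the deposited counts with the quasi-likelihood test of edgeR 4.0.16 (TMM scaling, its default expression filter, Benjamini-Hochberg adjustment over all genes, R 4.3.3). Tissues were tested within genotype, and the interaction in 1 fit. CPM are printed on 1 scale over 16 libraries, while fold changes come from each fit. Shares used exact permutation tests (scipy). Intervals are 95%. Alternatives were DESeq2 1.42.0, limma-voom (limma 3.58.1), other scalings and filters, and libraries left out. Heart and liver come from the same animal per the labels, which pairs them; their deviations correlated at 0.0144 to 0.0965. The main tissue and interaction fits nevertheless used group means without the animal, which entered as a block in an alternative. No label pairs WT with QKO animals, which share a replicate number and with it the number series, 47 or 48. Genotype tests were therefore unpaired. P-values measure the spread between animals.

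The members and lists were chosen with earlier results of these data known. Named regulators are those past the threshold and, per list and tissue, the highest and lowest value among genes with a mean of 1 CPM or more. Myh2, Myh6, Myh7, Mybpc2, Nppa, Nppb, Myl7, Tagln, Synpo2, Smtn, Lmod1, Cnn1 and the Myh11 values in liver were named after values were seen.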

Additional observations from a re-analysis of the deposited data

Results flagged for a closer look

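In 6 of 30 groups of 4 libraries, 1 library stood far from the other 3. The cut used would flag about 5% of groups if values were independent and normally spread, which was not checked for these CPM. Several flags fell on the same library, QKO liver 2, so they are not separate events. Acta1 stood at 55.4 CPM in WT liver 4 and at 4.23 CPM in QKO liver 2. QKO liver 2 also stood high among QKO livers in Acta2, at 5.01 CPM, and in Actg2, at 0.442 CPM. Actg2 stood at 0.406 CPM (17 counts) in WT heart 1. The Acta1 share of the Acta1 and Actc1 counts was 3.08% in WT heart 3. No actin differed between tissues in its genotype effect by the interaction test.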

How the results depend on the processing

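Calls in liver (0), in the interaction (0) and between tissues in QKO (5) were the same under every alternative tried. In heart the count of called actins was 0 under 18 of 21 alternatives, 2 with no count filter, 1 within animal series 47 and 1 within series 48. More genes were called in all under these settings: 102 of 30532, 108 of 16322 and 37 of 18244, against 28 of 16974 in the main fit. Each series fit compared only 2 WT with 2 QKO animals. Between tissues in WT animals the count of called actins was 3, and 5 with the replicate block (the animal). Leaving out 1 library gave 3 to 5. Acta1 in liver reversed to 1.70 with limma-voom, 1.31 with the replicate block, 7.20 within series 47 and 6.31 without WT livers 3 and 4, and ran from -5.58 to 5.33 with 1 library left out. Its interaction ran from -4.31 to 6.59, and was -5.27 without WT livers 3 and 4. Values near 0 changed sign. Actb in heart ran from -0.13 to 0.0188 with 1 library left out and was 0.0051 without hearts 4, and Actg1 was -0.12 within series 48. In liver, with 1 library left out, Actc1 ran from -0.40 to 0.55, Actg2 from -2.54 to 0.34, Actb from -0.0292 to 0.11 and Actg1 from -0.12 to 0.0158. Within series 47 Actc1 was -0.52, Acta2 0.42, Actg2 1.27 and Actg1 0.0077. Actb was -0.0629 within series 48, Actc1 -0.0649 with the series as a term, and Actg2 0.53 without WT livers 3 and 4. These causes were not tested. No label pairs WT with QKO animals by replicate number, and correlations of their deviations were 0.00 to 0.27 in heart and -0.07 to 0.09 in liver. These values cannot decide whether they are paired, since heart and liver of the same animal gave only 0.0144 to 0.0965. The highest value, 0.27, was that of hearts 4. A replicate block on these numbers gave 0 calls in each tissue, with Acta1 in heart at an adjusted p of 0.0597 by edgeR's test. The share differences kept their direction under all 11 alternatives each. Among these only the counts per kb of exon keep 4 against 4 animals; the others cannot reach 0.05, so their p says nothing of stability. The replicate block gave exact p of 0.250, 0.375 and 0.375, where 4 pairs cannot go below 0.125. Depth limits Actg2 most, at 0 to 36 counts per library.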
